A study of Mus musculus with 9 samples.

Results

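Zrsr2, its paralog Zrsr1 and the factors that do the matching work in the major spliceosome (U2af1, U2af2, U2af1l4 and Sf1) were followed in sorted mouse bone marrow cells. They are 6 of the 38215 genes in the deposited table, were taken by their symbols with no threshold on values, though with earlier results of these data known, and 6 of 6 passed the filter on low counts that left 14944 genes to test. RNA was sequenced from 9 libraries of LSK cells (negative for lineage markers, positive for Sca1 and Kit), the bone marrow fraction that contains haematopoietic stem cells and their multipotent progeny, taken at the terminal time point and sorted as positive for both GFP and mCherry. All mice were C57BL/6J, carried Jak2V617F, the activating kinase mutation of myeloproliferative neoplasms, and had received tamoxifen. The 5 libraries with EV in their titles have Jak2V617F alone as genotype, and the other 4 have Jak2V617F and sgZrsr2, which the design text of the series describes as loss of Zrsr2. The labels spell out neither EV nor sg, and the target of the tamoxifen treatment, the construct behind each fluorescent protein and the ages of the mice are not given in the sources used here.

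The end of an intron is read by small sets of proteins. In the major (U2-type) spliceosome SF1 binds the branch site, U2AF2 the polypyrimidine tract and U2AF1 the AG at the intron's last bases, while ZRSR2, a relative of U2AF1, contacts the 3′ splice site of the rare U12-type introns that the minor spliceosome removes. ZRSR2 and U2AF1 are both mutated in human myeloid neoplasms; Zrsr1 is an intronless, imprinted copy of Zrsr2 in the mouse, and U2af1l4 encodes a shorter relative of U2AF1 that can also pair with U2AF2.

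How alike these genes are in sequence bears on which reads can be told apart. The coding sequences of Zrsr2 (1623 bases) and Zrsr1 (1284 bases) were identical at 79.8% of 1255 aligned columns, in the transcripts of GENCODE M21 on GRCm38. Those of U2af1 (717 bases) and U2af1l4 (660 bases) were identical at 74.7% of 620 columns, and Zrsr2 and U2af1 at 61% of 403 columns. No stretch of 50 bases was shared between any pair of the 6 genes. The longest run common to Zrsr2 and Zrsr1 was 37 bases, and the window of 90 coding bases that ends with it is printed here to show how close the 2 paralogs come, with capitals at the 6 bases where Zrsr1 differs from Zrsr2. Zrsr2 (coding bases 759 to 848) is read from 3 exons on the minus strand of chromosome X, at chrX:163943100-163943124, chrX:163940119-163940174 and chrX:163939407-163939415. Zrsr1 (coding bases 720 to 809) is read from its single exon on the plus strand, at chr11:22973947-22974036.
Zrsr2: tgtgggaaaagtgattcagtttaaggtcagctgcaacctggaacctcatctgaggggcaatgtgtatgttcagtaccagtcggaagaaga
Zrsr1: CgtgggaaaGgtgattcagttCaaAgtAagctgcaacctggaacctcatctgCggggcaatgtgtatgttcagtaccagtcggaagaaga

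The second set shows the contrast between a paralog and a processed pseudogene of the same gene. Coding bases 421 to 510 of U2af1 come from the minus strand at chr17:31648183-31648244 and chr17:31648068-31648095. Those of U2af1l4 come from the plus strand at chr7:30564546-30564607 and chr7:30564703-30564730, with capitals at the 15 bases that differ from U2af1. Gm10232, a processed pseudogene of U2af1 on the minus strand of the same chromosome (chr17:3043884-3044750), had 0 differences over transcript bases 421 to 510 and was identical to the U2af1 coding sequence at 97.75% of 711 aligned columns.
U2af1: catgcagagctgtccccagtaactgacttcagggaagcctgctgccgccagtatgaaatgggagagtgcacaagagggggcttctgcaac
U2af1l4: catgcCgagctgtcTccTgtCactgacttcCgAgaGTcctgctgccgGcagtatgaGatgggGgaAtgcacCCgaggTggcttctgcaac
Gm10232: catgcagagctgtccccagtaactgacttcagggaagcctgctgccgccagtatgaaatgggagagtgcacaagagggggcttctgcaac

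The libraries held 23238264 to 45585531 expected counts, and 16169 to 19411 genes had at least 1 count. The shallowest were sgZrsr2 mice 1 and 2, with 23238264 and 25857723 counts, while every EV library held at least 32961362. Mitochondrial genes took 4.04% and 4.07% of the counts in sgZrsr2 mice 1 and 2. They took 2.35% and 2.27% in sgZrsr2 mice 3 and 5, and 2.41% to 3.36% with EV. The part of these differences in the results was not tested. Each library is given as 1 mouse, so the p-values measure the spread between these samples; sgZrsr2 mice 1 and 2 were the nearest pair of the 9 and differed by more than sampling noise (chi-square 9.32 per degree of freedom). Repeated libraries of 1 RNA sample could differ by as much, so this does not tell mice from libraries; they were treated as 2 samples on the labels alone. Of 10 LSK markers, 10 had a median of at least 1 CPM (counts scaled to library size, after the TMM correction for library composition). Kit lay between 246.7 and 631.9 CPM and Ly6a, which encodes Sca1, between 14.8 and 49.3 CPM. Transcripts of mature neutrophils were present: the 8 genes of that list summed to 168.8 CPM in EV mouse 5 and 200.4 CPM in sgZrsr2 mouse 3, and to 10.9 to 54.3 CPM in the other 7 libraries, although Ly6g, 1 of the 8, did not exceed 0.0557 CPM. The T-cell gene Cd3e did not exceed 0.0873 CPM, but other lymphoid transcripts were present, such as Dntt at 50.98 to 281.3 CPM. The 8 genes of the lymphoid list summed to 106.3 to 350.5 CPM with EV and 69.72 to 254 CPM with sgZrsr2. Those of the monocyte or dendritic list summed to 627.1 to 1377 CPM with EV and 617.7 to 1180 CPM with sgZrsr2. EV mouse 5 and sgZrsr2 mice 3 and 5 had 25.4, 39.3 and 35.5 CPM of the erythroid gene Car1, with the other 6 libraries between 0 and 0.422, and 22 to 37.4 CPM of the platelet gene Pf4, with the others between 0.979 and 3.43. The sums of the whole erythroid list did not set these 3 libraries apart (494.7, 674.4 and 454.8 CPM, with 384.4 to 607.5 CPM in the others). The part of these cells in the results was not tested. In bulk libraries fewer cells of a type and less RNA per cell cannot be told apart.

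Levels of the 6 factors can be compared with one another only per length, here as CPM per kilobase of the longest coding transcript. In the EV libraries U2af2 was highest at 182.8 ± 25.6 (SD, n = 5), followed by Sf1 at 127.6 ± 25.7, U2af1 at 117 ± 28.4 and U2af1l4 at 52.51 ± 2.26. Zrsr2 was at 19.53 ± 1.81 and Zrsr1 at 3.46 ± 0.477 on the same scale. The 3 highest genes were not separated from their neighbours in this order: the EV range of Sf1 (112.6 to 173.2) overlapped those of U2af2 (156.8 to 212.4) and U2af1 (89.01 to 160.4). Each of the steps from U2af1 to U2af1l4, Zrsr2 and Zrsr1 was larger than the spread between mice, with no overlap of EV ranges. The order of the EV means was the same per kilobase of all annotated exons, but the steps were not. There Zrsr2 stood at 7.43 ± 0.687 and Zrsr1 at 3.46 ± 0.477 in the EV libraries. The EV range of Sf1 (78.93 to 121.4) again overlapped that of U2af2 (79.62 to 107.8), but not that of U2af1 (31.62 to 56.99). In the sgZrsr2 libraries the mean of Sf1 (87.64 ± 6.8) was above that of U2af2 (81.12 ± 7.11) per kilobase of all exons. By its mean over all 9 libraries on that scale Zrsr2 exceeded 52.8% of the tested genes with a known length, Zrsr1 41.1% and the other 4 genes 86.7% to 96.4%. The minor-spliceosome factor and its copy were thus expressed near the middle of the genes tested, and the major-spliceosome factors in the upper part.

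**Figure D1:**
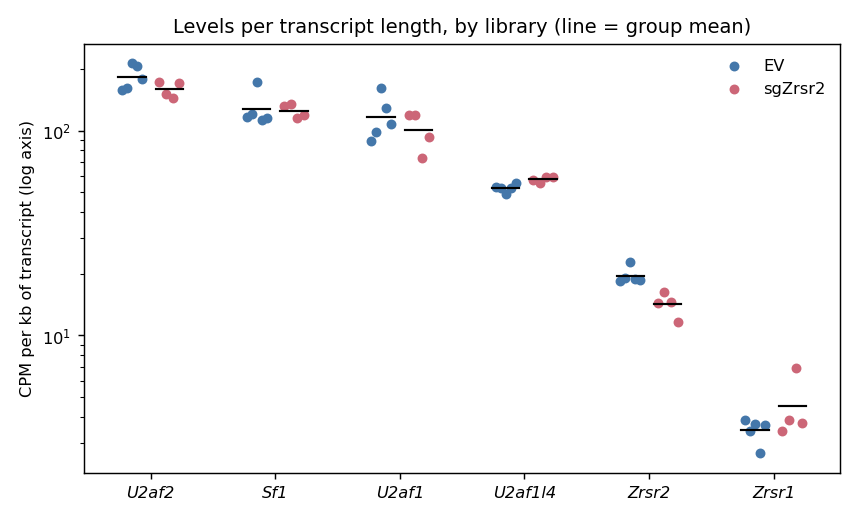
Levels of the 6 genes in CPM per kilobase of the longest coding transcript (log axis), 1 point per library, EV in blue and sgZrsr2 in red, with a line at each group mean. U2af2, Sf1 and U2af1 lie together at the top, U2af1l4 below them, and Zrsr2 and Zrsr1 (EV means 19.53 and 3.46) at the bottom.

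The comparison of sgZrsr2 with EV asked how loss of Zrsr2 in Jak2V617F cells was accompanied by differences in these factors. Zrsr2 itself (ENSMUSG00000031370, chrX:163935443-163958661, minus strand, 11 exons) had CPM values of 50.6, 51.9, 62.2, 51.7 and 50.7 in the EV libraries (mice 1 to 5, in this order throughout). The sgZrsr2 libraries (mice 1, 2, 3 and 5, in this order throughout) had 39.4, 44.4, 40 and 31.7. The groups did not overlap, and sgZrsr2 mouse 5 was lowest. The means were 53.42 ± 4.94 CPM (SD, n = 5) and 38.87 ± 5.30 CPM (SD, n = 4), so that 72.8% of the EV level remained, and the two-sided exact permutation p over 126 splits was 0.0159, the smallest these group sizes allow. The log2 fold change from the edgeR quasi-likelihood fit was -0.46 (SE 0.12, 95% interval -0.73 to -0.19), with an unadjusted p of 0.0032 that ranked 53rd among all genes and a Benjamini-Hochberg adjusted p of 0.714. At that adjusted threshold 0% of the 14944 genes were called, and the smallest adjusted p of any gene was 0.714; before adjustment 1024 genes (6.85%; 2.98% lower and 3.87% higher with sgZrsr2) had a p under 0.05, and Zrsr2 was the only 1 of the 6 members among them.

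The order of the groups for Zrsr2 held under TMM, RLE and upper-quartile factors and under library totals (exact permutation p = 0.0159 in each of the 4). Its expected counts, 884 to 2349 per library, were whole numbers in 9 of 9 libraries, which leaves no sign of reads divided with Zrsr1 or another gene. The sgZrsr2 library with the lowest Zrsr2, mouse 5, also had the highest sum of the 8 megakaryocyte markers (496.2 CPM; 125.1 to 303.9 CPM with EV and 218.2 to 496.2 CPM with sgZrsr2). Without EV mouse 5 and sgZrsr2 mice 3 and 5 the groups of Zrsr2 still did not overlap (log2 fold change -0.36, edgeR adjusted p = 0.438; exact permutation p = 0.133, the smallest that 4 against 2 libraries can give). The Y-linked gene Ddx3y was at 67.4 CPM or more in every library and Xist, transcribed from the inactive X of female cells, at 0.445 CPM or less. The values are sums over a gene's transcripts, so they do not show whether the remaining Zrsr2 transcripts carry a change in sequence, nor how much protein was left.

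**Figure D2:**
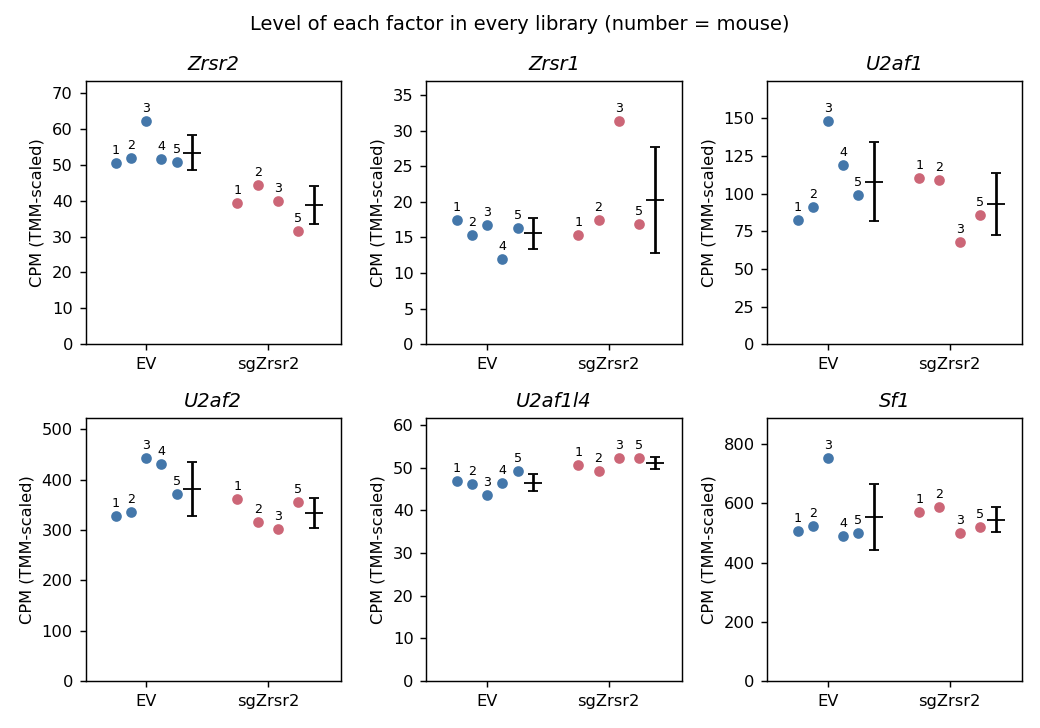
Level of each of the 6 genes in CPM (TMM-scaled) in every library, with the mouse number at each point, EV in blue and sgZrsr2 in red, and the group mean ± SD in black. Zrsr2 separates the groups (50.6 to 62.2 against 31.7 to 44.4 CPM), U2af1l4 does so by a narrow gap, and the other 4 genes overlap.

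Zrsr1 (ENSMUSG00000044068, chr11:22972005-22976496, plus strand, 1 exon) had 17.4, 15.4, 16.7, 11.9 and 16.4 CPM in the EV libraries. The sgZrsr2 values were 15.4, 17.4, 31.3 and 16.8 CPM. Mouse 3 stood well above the EV range and mouse 2 just above its top (17.43 and 17.39 CPM), while mice 1 and 5 lay within it, so the groups overlapped. The means were 15.56 ± 2.14 CPM (SD, n = 5) and 20.24 ± 7.45 CPM (SD, n = 4), a log2 fold change of 0.38 (SE 0.22, 95% interval -0.11 to 0.87; edgeR adjusted p = 0.720; exact permutation p = 0.238). Without sgZrsr2 mouse 3 the log2 fold change was 0.09. The interval does not exclude a level of Zrsr1 that is unequal between the groups in either direction.

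Zrsr1 lies inside Commd1, which encodes a COMM-domain protein and is read from the opposite strand, and the strand setting of the counting is not given in the sources used here. In GENCODE M21 the Zrsr1 exon overlaps Commd1 exons over 209 bases (chr11:22972651-22972859) and 203 bases (chr11:22973900-22974102). The second overlap holds the window of Zrsr1 printed above, the part closest to Zrsr2. Zrsr1 had whole counts in 3 of 9 libraries; its counts added to those of Commd1 and of the neighbour B3gnt2 came to whole numbers in 9 of 9 (within 0.015), so reads were divided among these 3 genes and not with Zrsr2. Commd1 had 51.6, 48.4, 48.6, 50.6 and 34.1 CPM in the EV libraries, then 34.6, 41.9, 33.4 and 33.3 CPM in those of sgZrsr2. The means were 46.67 ± 7.12 (SD, n = 5) and 35.80 ± 4.08 CPM (SD, n = 4), with overlapping groups (log2 fold change -0.38, SE 0.14; edgeR adjusted p = 0.714; exact permutation p = 0.0476). In sgZrsr2 mouse 3, where Zrsr1 was highest, Commd1 was within the range of the other sgZrsr2 libraries.

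Set side by side within each library, the counts of Zrsr1 were 0.344, 0.297, 0.268, 0.231 and 0.323 of those of Zrsr2 in the EV libraries. In the sgZrsr2 libraries they were 0.39, 0.392, 0.783 and 0.532. The groups did not overlap in this ratio, which was computed after the values of both genes had been seen and was not tested. It contains Zrsr2, whose level was lower with sgZrsr2, in its denominator.

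U2af1 (ENSMUSG00000061613, chr17:31647082-31658754, minus strand, 8 exons), which reads the AG of U2-type introns, had 82.2, 91.2, 148.1, 119.2 and 99.3 CPM in the EV libraries. The sgZrsr2 values were 110.2, 109.3, 67.6 and 85.8 CPM. EV mouse 3 was highest and sgZrsr2 mouse 3 lowest, and the groups overlapped. The means were 108 ± 26.2 CPM (SD, n = 5) and 93.22 ± 20.5 CPM (SD, n = 4), a log2 fold change of -0.21 (SE 0.20, 95% interval -0.65 to 0.23; edgeR adjusted p = 0.795; exact permutation p = 0.413). Without EV mouse 5 and sgZrsr2 mice 3 and 5 the means were 110.1 and 109.8 CPM. Without either mouse 3 alone the difference also shrank: the means were 97.96 and 93.22 CPM without EV mouse 3, and 108 and 101.8 CPM without sgZrsr2 mouse 3.

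The counts of U2af1 were whole in 0 of 9 libraries. Added to those of Gm10232, the pseudogene with the identical window printed above, they were whole in 9 of 9, so the deposited value of U2af1 depends on how RSEM divided reads between these loci. Of the 50-base stretches of the U2af1 transcripts 20.9% also occur in Gm10232. The share of the sum given to Gm10232 was 28.3% to 33% in the 9 libraries, with overlapping groups. The sum of both averaged 158.9 ± 38.3 CPM (SD, n = 5) in the EV and 135.3 ± 28.1 CPM (SD, n = 4) in the sgZrsr2 libraries, a log2 fold change of -0.23 (SE 0.19; edgeR adjusted p = 0.766; exact permutation p = 0.349). If all these reads were from U2af1, its EV level per kilobase would be 172.2 ± 41.5, above the EV mean of Sf1 and below that of U2af2, so its place in the order of levels is uncertain.

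**Figure D3:**
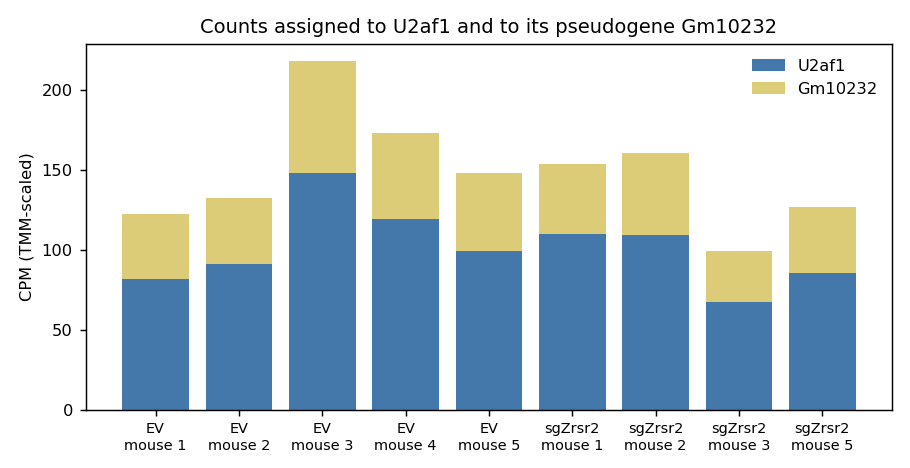
Counts assigned to U2af1 (blue) and to its processed pseudogene Gm10232 (yellow), stacked, in CPM (TMM-scaled) for each of the 9 libraries. The pseudogene takes 28.3% to 33% of each bar, and the bars of both groups cover a common range.

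U2af2 (ENSMUSG00000030435, chr7:5062143-5079945, plus strand, 12 exons), the large U2AF subunit, had 327.5, 335.3, 443.4, 431.0 and 371.4 CPM in the EV libraries. The sgZrsr2 values were 360.8, 315.3, 302.4 and 356.3 CPM. EV mice 3 and 4 were the high libraries, and the groups overlapped. The means were 381.7 ± 53.5 CPM (SD, n = 5) and 333.7 ± 29.2 CPM (SD, n = 4), a log2 fold change of -0.19 (SE 0.12, 95% interval -0.47 to 0.08; edgeR adjusted p = 0.734; exact permutation p = 0.175). Its counts were whole in 9 of 9 libraries, although 10.9% of its 50-base stretches also occur in the processed pseudogene Gm5846.

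Sf1 (ENSMUSG00000024949, chr19:6363690-6378030, plus strand, 13 exons), the branch-site binder, had 507.9, 522.9, 753.9, 490.2 and 501.3 CPM in the EV libraries. The sgZrsr2 values were 572.2, 587.4, 498.5 and 519.2 CPM. All libraries but EV mouse 3 lay between 490.2 and 587.4 CPM. The means were 555.2 ± 112 CPM (SD, n = 5) and 544.3 ± 42.3 CPM (SD, n = 4), a log2 fold change of -0.03 (SE 0.14, 95% interval -0.34 to 0.29; edgeR adjusted p = 0.965; exact permutation p = 1). The sign of this small difference was positive without EV mouse 3 (0.10), without sgZrsr2 mouse 3 (0.01) and with library totals (0.01).

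U2af1l4 (ENSMUSG00000078765, chr7:30563301-30567960, plus strand, 8 exons), the short relative of U2af1, had 46.8, 46.1, 43.5, 46.5 and 49.1 CPM in the EV libraries. The sgZrsr2 values were 50.7, 49.2, 52.3 and 52.3 CPM. Every one of these exceeded every EV value, by a gap between 49.13 CPM (EV mouse 5) and 49.22 CPM (sgZrsr2 mouse 2). The means were 46.42 ± 2 CPM (SD, n = 5) and 51.13 ± 1.47 CPM (SD, n = 4), 110% of the EV level (exact permutation p = 0.0159). The log2 fold change was 0.14 (SE 0.09, 95% interval -0.05 to 0.33; edgeR unadjusted p = 0.134, adjusted p = 0.728). The separation depended on the scaling: the groups did not overlap with TMM or RLE factors, and overlapped with upper-quartile factors (exact permutation p = 0.0635) and with library totals (0.111). It also depended on how reads were divided with a neighbouring gene, as described below.

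Groups did not overlap for 2 of the 6 members, Zrsr2 lower and U2af1l4 higher with sgZrsr2, where 3.06% of all genes tested had groups that did not overlap (1.32% lower and 1.75% higher). With TMM factors U2af1l4 was also the steadiest of the 6 genes. Under library totals its values spread more widely, from 38.89 to 56.11 CPM against 43.52 to 52.3 CPM with TMM. Its rank by steadiness was not computed there. With TMM factors the coefficient of variation of U2af1l4 over the 9 libraries was 6.18%, and 1.8% of the 2952 genes of similar level varied less. For Zrsr2 it was 19.2%, which includes the difference between the groups, with 64.8% of the genes of similar level below it. It was 30.6% for Zrsr1, 23.4% for U2af1, 15.1% for Sf1 and 13.6% for U2af2. The table gives U2af1l4 an end that equals that of Gm49396, a read-through transcript of GENCODE M21 that continues past U2af1l4 into the neighbour Igflr1 (Tmem149 in the table). The length behind the level of U2af1l4 per kilobase came from a gene model that ends at chr7:30565365, so that level is uncertain. Its counts were whole in 2 of 9 libraries and, with those of Tmem149 added (0 to 108.91 counts), in 9 of 9.

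With TMM factors EV mouse 3 had the highest level of Zrsr2, U2af1, U2af2 and Sf1 and the lowest of U2af1l4. Its TMM factor, 0.894, was the lowest of the 9. By library totals U2af2 was higher in EV mouse 4 (426.0 CPM) than in EV mouse 3 (396.1 CPM). Ratios of 2 genes in the same library do not depend on such scaling, so 5 ratios that set each factor against its counterpart were compared. The counts of Zrsr2 were 0.616, 0.569, 0.42, 0.434 and 0.511 of those of U2af1 in the EV libraries, against 0.357, 0.406, 0.592 and 0.369 for sgZrsr2. In 3 of 4 sgZrsr2 libraries this ratio was below every EV value; in mouse 3, where U2af1 was lowest, it was above all EV values but the one of mouse 1. The mean log2 ratio was -0.99 ± 0.240 with EV (SD, n = 5) and -1.24 ± 0.335 with sgZrsr2 (SD, n = 4), a difference of -0.26 (exact permutation p = 0.190; Benjamini-Hochberg adjusted over the 5 ratios, 0.357). Without sgZrsr2 mouse 3 it was -0.42 (exact permutation p = 0.0357, not adjusted).

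None of the other ratios separated the groups. The log2 ratio of Zrsr1 to U2af1 was higher by 0.54 with sgZrsr2 (exact permutation p = 0.286, adjusted 0.357), where sgZrsr2 mouse 3 was at a count ratio of 0.464 and the other 8 libraries at 0.1 to 0.212; without that library the difference was 0.16. That of U2af1l4 to U2af1 was higher by 0.35 (exact permutation p = 0.254, adjusted 0.357), and by 0.19 without sgZrsr2 mouse 3 or 0.20 without EV mouse 3. Within the U2AF heterodimer, U2af1 to U2af2 differed by -0.02 (exact permutation p = 0.921), with count ratios of 0.251 to 0.334 in EV and 0.224 to 0.347 in sgZrsr2 libraries. Between the branch-site and tract binders, Sf1 to U2af2 was higher by 0.18 (exact permutation p = 0.238, adjusted 0.357), and by 0.09 without EV mouse 4 or 0.11 without sgZrsr2 mouse 2.

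**Figure D4:**
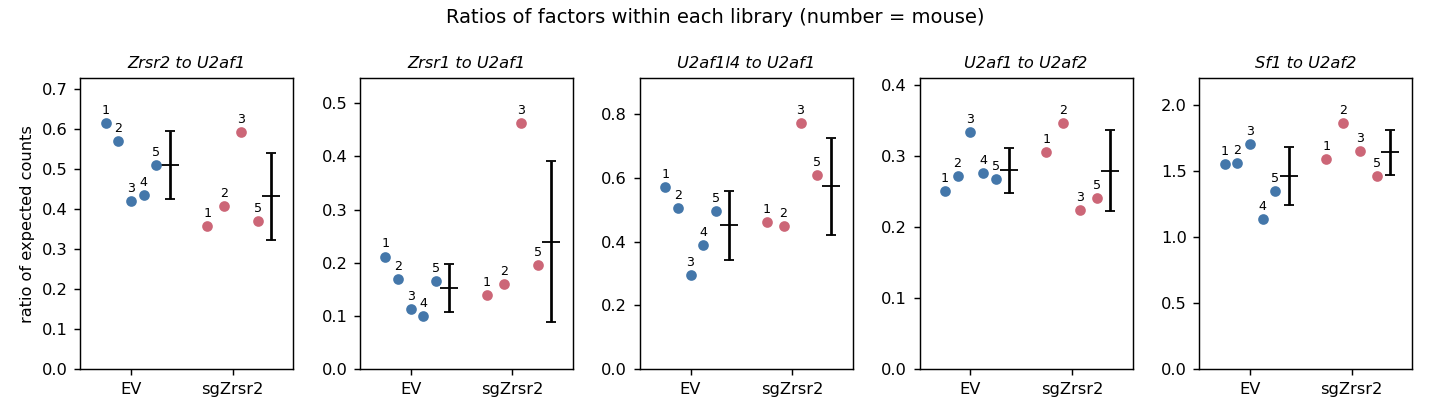
Ratios of expected counts of 2 genes within each library, with the mouse number at each point, EV in blue and sgZrsr2 in red, and the group mean ± SD in black. The groups overlap in each of the 5 ratios, and sgZrsr2 mouse 3 departs from the other 3 sgZrsr2 libraries in the ratios to U2af1.

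Related factors were counted in 3 lists, and none of their genes passed the adjusted threshold (0% of all genes tested did); values are means ± SD over 5 EV and 4 sgZrsr2 libraries. Of 18 genes that encode partners of U2AF and SF1, 7 had a higher and 11 a lower mean with sgZrsr2, 0 at an unadjusted p under 0.05 (6.85% of all genes tested). Their median log2 fold change was -0.03, beside -0.01 over all genes tested, and their range -0.17 to 0.28. Rbm5, a splicing regulator that binds U2AF, had the largest log2 fold change of this list (0.28), with 115.7 ± 30.5 CPM in EV and 140.6 ± 26.9 CPM in sgZrsr2 libraries. Cherp, of the U2 snRNP, was at 185.4 ± 16.2 and 168.1 ± 13.8 CPM, U2surp, another protein of that particle, at 131.8 ± 4.76 and 121.3 ± 10.4 CPM, and Ddx39b, the helicase that acts with U2AF2, at 572.4 ± 58.3 and 561.2 ± 21.0 CPM.

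Of 15 genes listed by hand as other binders of the tract, the AG or the branch site, 6 had a higher and 9 a lower mean with sgZrsr2 (median log2 fold change -0.06, range -0.27 to 0.40). Whether each of them binds there was not examined. At an unadjusted p under 0.05 there was 1 gene, a share near the 6.85% of all genes tested. It was Mbnl2, a regulator of alternative splicing, with a mean of 58.51 ± 13.0 CPM (SD, n = 5) in EV and 77.34 ± 5.79 CPM (SD, n = 4) in sgZrsr2 libraries (log2 fold change 0.40, edgeR unadjusted p = 0.0291, adjusted p = 0.714; exact permutation p = 0.0476). Ptbp1, which competes with U2AF2 for the tract, was at 926.7 ± 136 and 805.5 ± 95.9 CPM, with overlapping groups. Hnrnpa2b1, which binds AG-rich sites, was at 1231 ± 71.3 and 1123 ± 51.6 CPM (exact permutation p = 0.0318; edgeR adjusted p = 0.742).

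Of the 10 measured genes for proteins of the U11/U12 particle and its partners, with which Zrsr2 works, 4 had a higher and 6 a lower mean with sgZrsr2. At an edgeR unadjusted p under 0.05 there were 0, where 6.85% of all genes tested were. Their median log2 fold change was -0.01 and their range -0.30 to 0.14. Snrnp35 averaged 9.839 ± 1.37 CPM in EV and 8.0 ± 1.31 CPM in sgZrsr2 libraries (edgeR adjusted p = 0.728), and Snrnp25 at 26.07 ± 2.91 and 22.36 ± 4.06 CPM. Rbm48 was at 16.7 ± 1.98 and 18.4 ± 2.50 CPM, and Pdcd7 at 40.5 ± 1.99 and 42.27 ± 3.89 CPM. The interval of Zrsr2 lay wholly below 0, as it does for genes lower with sgZrsr2 at an edgeR unadjusted p under 0.05. These were 2.98% of all genes tested, and the edgeR adjusted p of Zrsr2 was 0.714. No gene of the 3 lists reached the log2 fold change of Zrsr2, -0.46, in that direction. Other genes tested went further down, and their share was not counted.

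**Figure D5:**
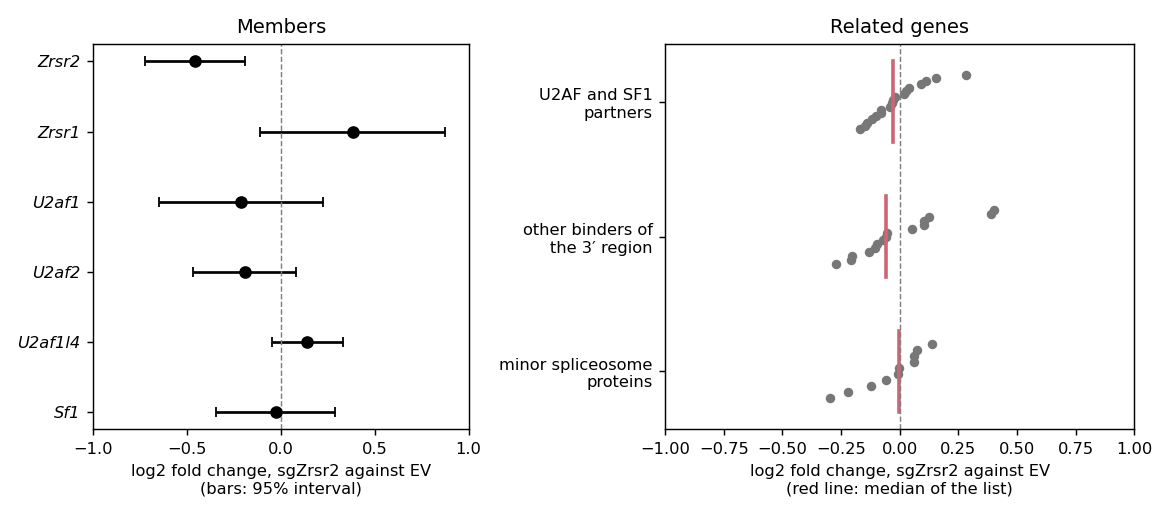
Log2 fold change, sgZrsr2 against EV, with its 95% interval for the 6 members (left) and without intervals for the genes of 3 related lists (right, 1 point per gene, red line at the list's median). Among the members the interval of Zrsr2 (-0.73 to -0.19) does not include 0, and the list medians are -0.03, -0.06 and -0.01.

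The genes whose log2 CPM ran most like that of each member over the 9 libraries, among 8977 genes of at least 10 CPM, are given as a description; the 9 points share 2 groups and their library composition. For Zrsr2 they were Ctss (Pearson r 0.89, Spearman rho 0.883), a lysosomal protease of myeloid cells, and Cd2ap (0.883 and 0.933). For Zrsr1 they were Ltbp3 (0.968 and 0.767) and Parp6 (0.966 and 0.633), with rho well below r. U2af1 ran with the cap-binding factor Eif4e (0.993 and 0.983) and the histone chaperone Nasp (0.99 and 1). U2af2 ran with the ribosome biogenesis genes Rrp12 (0.984 and 0.933) and Ltv1 (0.974 and 0.95). U2af1l4 ran with Dlg3 (0.963 and 0.933) and the death ligand Tnfsf10 (0.957 and 0.967), and Sf1 with Usp22 (0.98 and 0.817) and R3hdm1 (0.976 and 0.733). No 2 members shared a nearest gene, and none of the genes named here belongs to the 3 lists. Only 2 of 8977 genes were taken per member, so little overlap could be expected, and nothing is concluded from its absence.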

How the data were processed

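Per the submitters' processing notes, reads were handled with cutadapt 1.11 and RSEM 1.2.30 on GRCm38; libraries came from 5 ng of total RNA by polyadenylated-RNA selection, a NEBNext Ultra II kit and PCR, per the labels' protocols. The aligner, annotation release and strand setting are not given in the sources used here. The authors deposited RSEM expected counts per gene, which divide reads that match several genes, so 9.78% to 13.3% of values per library were not whole. They were rounded, filtered with filterByExpr (minimum count 10, minimum total 15; 14944 genes, 99.93% of counts kept), scaled by TMM factors of 0.894 to 1.07 and tested with edgeR 4.0.16 (glmQLFit, glmQLFTest; R 4.3.3) on EV against sgZrsr2, adjusted by Benjamini-Hochberg over all genes tested at 0.05. Single genes and ratios of counts were compared by two-sided exact permutation of the group labels (126 ways). The test was checked on simulated counts. Depth was 23238264 to 45585531 expected counts, and the number of mice also limits precision.

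The members and lists were chosen with earlier results of these data known. The 3 lists (18 partners of U2AF and SF1, 15 other binders, 11 minor spliceosome proteins, of which 10 were found) were written by hand; Ptbp3 and Scnm1 stand in the table as Rod1 and Scnm1-ps. From each list the 3 genes with the smallest p and the most abundant one are named, with Commd1 and 2 genes of most similar pattern per member. Genes of similar level, for coefficients of variation, are described as values only. Marker lists for other cells were read as summed CPM (ranges for EV and sgZrsr2): LSK 1468 to 2030 and 1651 to 2074, megakaryocyte 125.1 to 303.9 and 218.2 to 496.2, erythroid 411 to 607.5 and 384.4 to 674.4, mature neutrophil 12.18 to 168.8 and 10.88 to 200.4, monocyte or dendritic 627.1 to 1377 and 617.7 to 1180, lymphoid 106.3 to 350.5 and 69.72 to 254; their part in the results was not tested. Sequences, lengths and overlaps came from GENCODE M21 (GRCm38), aligned with Biopython 1.88. Alternatives were other scalings, other filters, DESeq2 1.42.0, limma-voom with sample quality weights (limma 3.58.1), the mouse number as a block, robust dispersion estimates, leaving out libraries, counts not rounded, sgZrsr2 mice 1 and 2 averaged, and, added after seeing the data, U2af1 summed with Gm10232 and U2af1l4 under other scalings. Batch labels are not given in the sources used here, so no within-batch values were computed.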

Additional observations from a re-analysis of the deposited data

Results flagged for a closer look

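In 26 sets of values (among them each of the 6 genes, Commd1 and the 5 count ratios, in both groups) the highest and lowest library were examined for a value far from the rest of its group, by dividing the distance from the next value by the range of that group. In 5 sets a library stood out, where chance, which marks about 1 in 20, gives 1.3. The sets share genes and libraries and are not independent, so these 2 numbers do not measure an excess over chance. Zrsr2 was at 62.2 CPM in EV mouse 3, and at 50.6 to 51.9 CPM in the other EV libraries. Sf1 was at 754 CPM in the same library and at 490 to 523 CPM in the others. These values are TMM-scaled. By library totals alone Zrsr2 was nearer to the rest, at 55.6 CPM in EV mouse 3 and 51.1 to 52.9 CPM in the other EV libraries. Sf1 was then at 673.4 CPM in EV mouse 3 and at 484.5 to 530.3 CPM in the others. Zrsr1 was at 31.3 CPM in sgZrsr2 mouse 3 and at 15.4 to 17.4 CPM in the other sgZrsr2 libraries. Commd1, around Zrsr1, was lowest in EV mouse 5, at 34.1 CPM beside 48.4 to 51.6 CPM, and highest among the sgZrsr2 libraries in mouse 2, at 41.9 CPM beside 33.3 to 34.6 CPM. EV mouse 3 had the lowest TMM factor (0.894), and EV mouse 5 and sgZrsr2 mouse 3 are among the 3 libraries with high Car1; the part of either in these values was not tested.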

How the results depend on the processing

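Over 12 alternatives and 9 fits that each left out 1 library, none of the 6 members passed the adjusted threshold. The DESeq2 Wald test called 16 genes and averaging sgZrsr2 mice 1 and 2 called 1; the other alternatives called 0, with 341 (mouse number as a block) to 2551 genes (limma-voom with sample quality weights) at an unadjusted p under 0.05. The log2 fold change of Zrsr2 stayed between -0.54 and -0.36, that of U2af2 between -0.24 and -0.05, of Zrsr1 between 0.09 and 0.49 and of U2af1l4 between 0.11 and 0.17. Sf1 turned sign with library totals (0.00999), limma-voom with sample quality weights (0.108), without EV mouse 5 and sgZrsr2 mice 3 and 5 (0.0342), and over fits that left out 1 library (-0.0732 to 0.101). U2af1 turned under limma-voom with the same weights (0.104), and stood at -6.25e-05 without those 3 libraries. The log2 ratio of U2af1 to U2af2 ran from -0.133 to 0.0783 when 1 library was left out, positive without either mouse 3 or sgZrsr2 mouse 5, and was 0.208 without the 3. That of Zrsr2 to U2af1 ran from -0.42 to -0.177. That of U2af1l4 to U2af1 was 0.0941 without the 3. The causes of these moves were not tested, nor was limma-voom without the weights.

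With the mouse number as a block the log2 fold change of Zrsr2 was -0.48 (edgeR unadjusted p = 0.0123, adjusted p = 1) and the log2 ratio of Zrsr2 to U2af1 -0.31. Same-numbered libraries did not deviate together (correlations -0.378, -0.204, -0.454 and 0.409 for numbers 1, 2, 3 and 5; only number 5 correlated best with its own), so the numbers were not read as pairs. Depth limits genes of few counts; each member value rests on at least 345 counts.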
